A study of Mus musculus with 24 samples.

Results

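The 6 genes described here were taken by name from the deposited count table of 55401 mouse genes, as genes whose level differed between T cells that carry a Cre transgene and T cells that do not. They are the long noncoding RNAs Gm38326 and 2010007H06Rik, the processed pseudogenes Gm33707 and Gm8778, and the protein-coding genes Cd1d1 and Mbnl1. The comparison of the Cre-carrying groups with the Cre-negative group chose them, so their values in that comparison are given below as a description and support nothing. The working name of the set calls the genes low-level. That holds for 5 of the 6, whose group means ran from 0.0159 to 9.36 CPM (gene counts scaled to library size), and not for Mbnl1, whose group means ran from 902 to 1370 CPM. The study profiled polyA RNA of sorted splenic CD4 and CD8 T cells of C57BL/6 mice aged 12 weeks, after activation through CD3 and CD28 in culture for 2 days. Each of the 6 groups, 2 cell types by 3 genotypes, held 4 libraries. The group called WT lacked Cre and is given as CD4.Cre-.Pou2af1fl/fl in its genotype label, although its title writes the gene as +/+. The group called Het was CD4.Cre+.Pou2af1fl/+ and the group called KO was CD4.Cre+.Pou2af1fl/fl. Every Cre carrier therefore also had at least 1 floxed allele exposed to Cre. The labels name no group with Cre and without a floxed allele, so the transgene, whatever travels with it, and the loss of an allele cannot be told apart in Het against WT.

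Pou2af1 encodes OCA-B, a coactivator without DNA binding of its own that joins the octamer-binding factors Oct1 and Oct2 and is best known from B cells. The CD4.Cre transgene drives the Cre recombinase from Cd4 regulatory sequences, which are active in thymocytes that still carry both CD4 and CD8, so that both T cell lineages inherit the recombined allele. CD1d, which Cd1d1 encodes, displays lipids that natural killer T cells recognise. MBNL1 binds RNA and regulates alternative splicing. A processed pseudogene is a copy of a spliced messenger RNA that was written back into the genome, and short reads can be hard to assign between such a copy and its source.

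Positions are on GRCm38. 4 of the 6 genes lie on chromosome 3. Mbnl1 spans chr3:60472830-60629750 on the plus strand. Gm33707 is 1 exon of 569 bases at chr3:60769887-60770455 on the minus strand, 140.1 kb beyond Mbnl1. Gm38326, with 3 exons that sum to 686 bases at chr3:60788361-60794730 on the plus strand, lies 17.9 kb beyond Gm33707. Cd1d1 lies 26.2 Mb further on, at chr3:86995834-86999441 on the minus strand. Gm8778 is 1 exon of 1107 bases at chr6:128976866-128977972 on the minus strand, inside an intron of Clec2g, which runs on the opposite strand and shares no exon base with it. 2010007H06Rik lies at chr9:51278513-51284210 on the plus strand, 38.4 kb from the end of Pou2af1. Its category in the files is antisense, yet no annotated gene overlapped it.

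Of the 6 genes, 3 have a near-copy that bears on how their reads can be assigned, and the start of each is shown with that copy, with differing bases in capitals. The Gm8778 transcript matched Isg20l2, which encodes a nuclear exonuclease, over its whole length with 92.0% identity across 1123 aligned positions, and no other annotated gene. The stretches are the first 90 bases of Gm8778 (chr6:128977883-128977972, minus strand) and the matching bases 452 to 541 of an Isg20l2 transcript. The latter are counted from the transcript start and lie in its coding sequence.
Gm8778: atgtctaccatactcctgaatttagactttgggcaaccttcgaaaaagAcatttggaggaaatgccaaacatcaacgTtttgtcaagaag
Isg20l2: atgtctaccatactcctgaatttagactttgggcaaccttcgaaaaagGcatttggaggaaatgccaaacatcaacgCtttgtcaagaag
The pair differed at 2 of these 90 bases, and the longest run without a difference over the whole alignment was 91 bases. Gm33707 matched the family of enolase 1, a glycolytic enzyme, with 89.2% identity to Eno1 over 576 positions and hits in 20 genes. Its first 90 bases (chr3:60770366-60770455, minus strand) stand here with bases 1009 to 1098 of an Eno1 transcript, counted and placed in the same way.
Gm33707: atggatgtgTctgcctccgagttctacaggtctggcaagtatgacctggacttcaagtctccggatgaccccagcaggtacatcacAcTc
Eno1: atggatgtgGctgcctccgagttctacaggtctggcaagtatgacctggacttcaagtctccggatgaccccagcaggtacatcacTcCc
These stretches differed at 3 of 90 bases, and the longest identical run was 76 bases. Cd1d1 and its neighbour Cd1d2, 6.1 kb away, were 96.3% identical over 1239 positions, and 90 coding bases of each from the start codon are shown.
Cd1d1: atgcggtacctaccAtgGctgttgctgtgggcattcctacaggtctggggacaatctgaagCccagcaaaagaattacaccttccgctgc
Cd1d2: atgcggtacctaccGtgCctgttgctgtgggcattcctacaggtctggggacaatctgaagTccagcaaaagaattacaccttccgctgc
The longest identical run of this pair was 245 bases, the longest of the 3. Reads that map to several places were kept apart from the gene counts in the deposited table, where they made up 17.5% to 18.5% of each library's total. Counts of Gm8778, Gm33707 and Cd1d1 are therefore uncertain to the extent that reads were shared with these copies.

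The RefSeq promoter table (GRCm38.p6) held Mbnl1 and Gm38326 among the 6. The promoter of Gm38326 is shown because Gm38326 averaged 8.16 CPM in CD4 Het and 0.125 CPM in CD8 Het libraries. It covers chr3:60788111-60788410 on the plus strand, with the bases from the transcript start onward in capitals.
Gm38326 promoter: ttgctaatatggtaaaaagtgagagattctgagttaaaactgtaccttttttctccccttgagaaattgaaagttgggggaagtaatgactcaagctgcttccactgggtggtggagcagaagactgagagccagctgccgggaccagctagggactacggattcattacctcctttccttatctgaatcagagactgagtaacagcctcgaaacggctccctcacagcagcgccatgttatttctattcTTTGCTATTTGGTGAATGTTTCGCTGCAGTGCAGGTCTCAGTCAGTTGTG
The octamer ATGCAAAT, searched on both strands, was in neither this window nor the Mbnl1 windows, and 1.74% of 32851 promoter windows of the same length held it.

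Gene counts summed to between 11944120 and 21760793 per library. Cd4 averaged 476 to 510 CPM in the CD4 groups and 0.562 to 0.898 CPM in the CD8 groups, and Cd8a averaged 662 to 733 CPM and 0.216 to 0.372 CPM in the reverse order, as the labels name the cells. The sum of 8 B cell markers ran from 7.54 to 37.6 CPM over all libraries and overlapped between all groups. The sums of 6 myeloid markers overlapped too (group medians 0.554 to 0.837 CPM), with Lyz2 at 0 in the CD4 WT and Het libraries. The sums of 5 dendritic cell markers ran from 3.73 to 16.9 CPM. The sums of 5 markers of natural killer and natural killer T cells were 0.142 to 1.59 CPM in CD4 and 3.38 to 7.55 CPM in CD8 libraries. Of the 5, only Klre1 had enough counts to be tested in CD8 and in the fit of all libraries. Ncr1 was at 0 in the CD8 WT and Het libraries, and Zbtb16 in the CD4 WT and Het libraries. The sums differed between the cell types and overlapped between genotypes, and their part in the results between cell types was not tested. By Xist and Ddx3y, Het held 2 female and 2 male libraries in each cell type, while WT and KO held 1 and 3. In the floxed gene itself, Het averaged 52.6% of WT in CD4 and 56% in CD8 cells, and KO averaged 5.7% and 6.17%. In these bulk samples, fewer cells of a type and less RNA per cell cannot be told apart.

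2010007H06Rik, the noncoding RNA beside the floxed gene, was at a low level without Cre and higher in every Cre carrier. In CD4 cells the WT libraries held 0.471, 0.775, 1.57 and 1.08 CPM, the Het libraries 3.82, 3.00, 4.95 and 5.89 CPM, and the KO libraries 4.48, 6.60, 13.7 and 12.7 CPM. No WT library reached the lowest Cre carrier, and Het and KO overlapped. In all 3 genotypes of CD4 cells, replicates 3 and 4 stood above replicates 1 and 2, by the widest margin in KO. In CD8 cells the WT libraries held 0.0755, 0.792, 0.765 and 0.688 CPM, the Het libraries 3.94, 4.38, 4.20 and 3.77 CPM, and the KO libraries 4.58, 5.29, 5.03 and 4.90 CPM. Here the 3 genotypes did not overlap at all, in the order WT, Het, KO. The means of Het and KO were 4.53 and 9.61 times the WT mean in CD4 cells and 7.02 and 8.53 times in CD8 cells. Pou2af1 fell in the KO libraries in the same comparison, so the values of the gene and its neighbour lay in opposite directions (KO against WT, log2 change of Pou2af1 -4.13 ± 0.31 SE in CD4 and -4 ± 0.26 SE in CD8, edgeR adjusted p = 2.96e-05 and 5.66e-06). Among CD4 KO libraries, replicate 3, with the highest 2010007H06Rik, also held the most Pou2af1 (3.78 CPM, against 1.30 to 2.10 CPM in the others). That is 1 library, and replicate 4, with 12.7 CPM of 2010007H06Rik, was among the others. A relation of the 2 genes within the group was not tested.

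Gm38326 and Gm33707, the pair beyond Mbnl1, were high in CD4 Cre carriers and near the limit of counting elsewhere. Gm38326 counted 4, 3, 1 and 6 in CD4 WT libraries (0.0712 to 0.271 CPM). It reached 9.39, 7, 7.54 and 8.71 CPM in CD4 Het libraries and 7.65, 6.45, 6.98 and 7.23 CPM in CD4 KO libraries. All 8 Cre carriers were thus far above all 4 WT libraries, and Het and KO overlapped. In CD8 cells the counts were 3, 2, 4 and 3 in WT, 1, 2, 1 and 3 in Het, and 3, 0, 2 and 2 in KO, and the genotypes overlapped. The ratio of summed counts, scaled for depth, was 38.1 for Het over WT in CD4 cells (exact 95% interval 22.5 to 70.3, counting error only) and 0.592 in CD8 cells (0.197 to 1.63).

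Gm33707 followed at a lower level. Its counts in CD4 cells were 1, 0, 3 and 0 in WT, 29, 21, 24 and 21 in Het (1.40 to 1.77 CPM) and 20, 23, 46 and 28 in KO (1.44 to 3.35 CPM). The ratio over WT was 27.2 for Het (10.3 to 102) and 36.2 for KO (13.8 to 135), both resting on 4 WT counts. In CD8 cells no library held more than 2 counts of it. Its CD8 libraries with Cre held 1 or 2 counts and the WT ones 0, 0, 0 and 1, all below the 3 counts used here as the floor. Eno1, its most abundant relative, did not pass the test in any genotype comparison (log2 change -0.16 ± 0.17 SE for Het against WT in CD4, edgeR adjusted p = 0.833).

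Gm8778 was all but absent without Cre in both cell types. WT libraries counted 1, 0, 0 and 1 in CD4 and 0, 0, 1 and 0 in CD8. Het libraries held 1.21, 0.933, 0.813 and 1.08 CPM in CD4 and 1.56, 0.988, 1.05 and 1.54 CPM in CD8. KO libraries held 0.577, 1.67, 0.946 and 2.10 CPM in CD4 and 1.08, 1.04, 1.20 and 0.966 CPM in CD8. Every Cre carrier lay above every WT library in both cell types, while Het and KO overlapped in both. The ratio of summed counts over WT was 33.2 for Het (8.77 to 280) and 42.1 for KO (11.2 to 355) in CD4 cells, on 2 WT counts, and 72.1 (12.5 to 2890) and 60.3 (10.4 to 2420) in CD8 cells, on 1. Isg20l2, the gene it resembles, averaged between 156 and 175 CPM in all 6 groups and did not pass the test in any genotype comparison (log2 change of 0.04 ± 0.06 SE for KO against WT in CD4 and -0.02 ± 0.07 SE in CD8, edgeR adjusted p = 1 and 0.99). It was added after the similarity was seen, and the same holds for Eno1. Isg20l2 is itself on chromosome 3, at chr3:87930314-87940686.

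**Figure D1:**
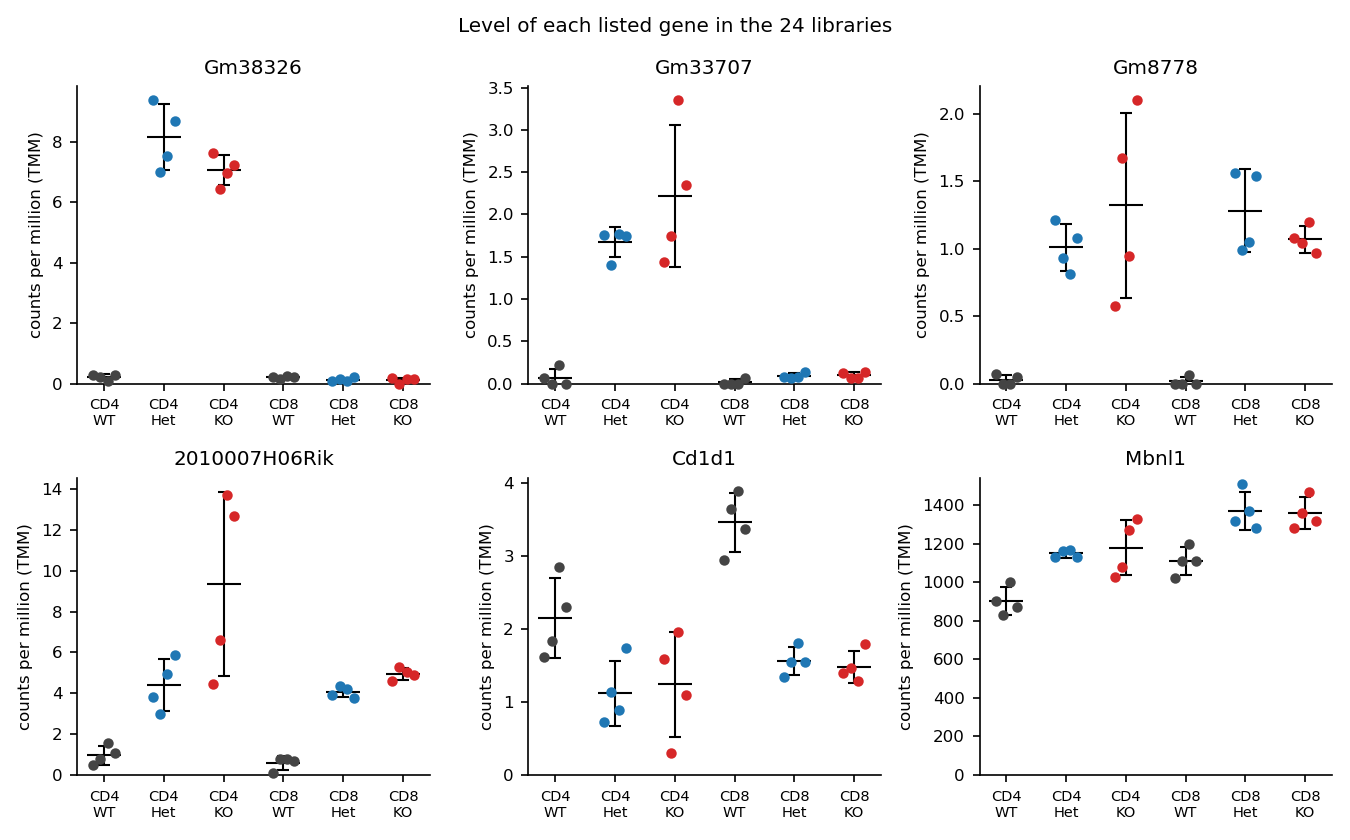
Level of the 6 genes in each library (points, 4 per group, replicates 1 to 4 from left to right), with the group mean and SD in black; the y axis of each panel is TMM-scaled CPM from 0. Gm38326 and Gm33707 are high in the CD4 Het and KO groups, Gm8778 and 2010007H06Rik in the Het and KO groups of both cell types, and Cd1d1 is highest in CD8 WT (3.46 ± 0.404 CPM).

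Cd1d1 was the listed gene with lower values in Cre carriers. In CD8 cells the WT libraries held 2.94, 3.64, 3.89 and 3.37 CPM, the Het libraries 1.34, 1.55, 1.80 and 1.54 CPM, and the KO libraries 1.39, 1.46, 1.28 and 1.79 CPM. No Cre carrier reached the lowest WT library, and the Het and KO means were 45.1% and 42.8% of WT. In CD4 cells the WT libraries held 1.61, 1.83, 2.85 and 2.30 CPM, the Het libraries 0.727, 1.13, 0.887 and 1.74 CPM, and the KO libraries 1.59, 0.303, 1.96 and 1.09 CPM. There the groups overlapped, with Het and KO means at 52.1% and 57.7% of WT. Cd1d2 did not rise above 3 counts in any library. Among other genes of lipid antigen presentation none was called. Of 16 tested among 17 listed, which include B2m, the light chain partner of CD1d, and Mttp, which loads lipids onto it, 0 passed the test in any of the 6 genotype comparisons, and their median log2 changes lay between -0.03 and 0.04, against -0.02 to 0.01 over all genes. By edgeR 0 of them were under an unadjusted p of 0.05 in any of these comparisons, beside 220 to 1104 of all tested genes. Over all genes 0.0157% to 0.0865% passed at the adjusted threshold, so 0 of 16 passing tells little about this list. Mttp, one of the 2 of lowest p in Het against WT in CD4, changed by 0.35 ± 0.17 SE (edgeR adjusted p = 0.611).

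Mbnl1 is set apart from the other 5 by its abundance. In CD4 cells the WT libraries held 903, 833, 1000 and 872 CPM, the Het libraries 1130, 1160, 1170 and 1130 CPM, and the KO libraries 1030, 1080, 1270 and 1330 CPM. In CD8 cells the WT libraries held 1020, 1110, 1200 and 1110 CPM, the Het libraries 1320, 1510, 1370 and 1280 CPM, and the KO libraries 1280, 1360, 1470 and 1320 CPM. In both cell types each Cre carrier was above each WT library, by a small margin, with means between 1.23 and 1.31 times WT. By edgeR without a covariate, Mbnl1 itself was not called in any genotype comparison. Against WT in CD4, its edgeR adjusted p was 0.248 for Het and 0.58 for KO. Its relatives Mbnl2 (group means 61.6 to 78.3 CPM) and Mbnl3 (44.0 to 62.9 CPM) did not pass the test in any genotype comparison either. In the list of splicing regulators, 11 genes were tested in CD4 and 10 in CD8, and 0 passed in any genotype comparison by edgeR. At most 1 was under an unadjusted p of 0.05, beside 220 to 1104 of all tested genes. Over all genes 0.0157% to 0.0865% passed in these comparisons, so the 0 tells little about this list.

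The share of all genes that differ in the same way gives the scale for these descriptions. In CD4 cells, 5 of the 6 genes had all Cre carriers above all WT libraries, which held for 0.362% of 12719 tested genes. In CD8 cells 3 of the 4 that passed the filter did, against 0.135% of 12612 genes, and Cd1d1 lay below without overlap, against 0.111%. In both cell types together, 5 of 12207 genes (0.041%) were higher without overlap and 3 (0.0246%) were lower. The higher ones were Mbnl1, Gm8778, 2010007H06Rik, Rps3a3 and Tpm3-rs7, and the lower ones were Rps3a1, Tpm3 and Pou2af1, all 8 named here after their values were seen. At an adjusted p under 0.05 in edgeR's quasi-likelihood fit, the listed genes made up 3 of the 11 genes past it for Het against WT in CD4 (0.0865% of all tested) and 4 of 9 for KO against WT (0.0708%). In CD8 cells they made up 3 of 8 in each comparison (0.0634%). The genes were chosen from these comparisons, so these counts follow from the choice and nothing is read from them. In a fit blocked on the replicate number, 45 genes passed for Het against WT in CD4, 4 of them listed. All 6 passed the filter on low counts in the CD4 fit and 4 of 6 in the CD8 fit, where Gm38326 and Gm33707 did not.

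Per kilobase of exon, the level of Mbnl1 exceeded that of the other 5 in all 6 groups, at 48.2 to 73.2 CPM per kb. In CD4 Het and KO cells it was followed by Gm38326 (11.9 and 10.3 CPM per kb) and Gm33707 (2.93 and 3.90 CPM per kb), and Cd1d1 came last (0.436 and 0.482 CPM per kb). Without Cre, Cd1d1 held the place behind Mbnl1, at 0.837 CPM per kb in CD4 and 1.35 CPM per kb in CD8, and Gm8778 came last at 0.0254 and 0.0144 CPM per kb. In CD8 Het and KO cells, Gm8778 (1.16 and 0.967 CPM per kb) and 2010007H06Rik (0.825 and 1.00 CPM per kb) lay close together and changed places, and the order of these 2 was not tested.

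Whether a loss of both alleles went further than a loss of 1 was asked by KO against Het, where both groups carry Cre. This comparison was not used to choose the genes, although its libraries were. None of the listed genes passed the test in CD4 (0 of 6, with 0.0157% of all genes passing) or in CD8 (0 of 4, with 0.0159%) by edgeR, and none did by DESeq2. At an unadjusted p under 0.05 by edgeR, 1 of the 6 passed in CD4, beside 465 of all 12719 tested genes. In CD8 0 of 4 did, beside 863 of 12612. 2010007H06Rik came nearest in CD4, with a log2 change of 1.09 ± 0.37 SE (edgeR adjusted p = 1). Within replicates 1 and 2 alone the change was 0.69 and within replicates 3 and 4 alone it was 1.28 (adjusted p = 0.55 and 0.0732). In CD8 it was 0.28 ± 0.26 SE and did not pass, although all 4 KO libraries lay above all 4 Het libraries, as for 1.4% of tested genes. Gm38326 (-0.20 ± 0.16 SE), Gm33707 (0.41 ± 0.37 SE) and Gm8778 (0.37 ± 0.38 SE) in CD4, and Gm8778 (-0.25 ± 0.26 SE) in CD8, overlapped between the 2 groups and did not pass. Cd1d1 differed by 0.17 ± 0.44 SE in CD4 and -0.07 ± 0.18 SE in CD8, and Mbnl1 by 0.03 ± 0.08 SE and -0.01 ± 0.07 SE. The difference of this change between CD8 and CD4 cells did not pass for any of the 4 genes tested in both cell types. It passed for 0% of 13288 genes by edgeR and 0 genes by DESeq2, with 694 genes at an unadjusted p under 0.05. 2010007H06Rik was at -0.81 ± 0.47 SE (edgeR adjusted p = 0.96). Gm38326 and Gm33707 are left out here. They entered that fit through the CD4 Het and KO libraries, and their CD8 counts near the floor allowed no call.

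Between CD8 and CD4 cells of the same genotype, Gm38326 and Gm33707 are described without a test. They entered the fit of all libraries through the CD4 Het and KO libraries, in which they were found to be high, so the outcome of a test there was set by the choice. In Het cells the ratio of summed counts in CD8 to those in CD4, scaled for depth, was 0.0155 for Gm38326 (exact 95% interval 0.00619 to 0.0322, counting error only) and 0.0544 for Gm33707 (0.0173 to 0.131). In KO cells it was 0.0166 (0.00662 to 0.0345) and 0.0453 (0.0163 to 0.102). In WT cells both were near the floor, at 12 and 14 summed counts of Gm38326 in CD8 and CD4 and 1 and 4 of Gm33707.

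2010007H06Rik was lower in CD8 than in CD4 in KO cells (log2 change -0.92 ± 0.32 SE, edgeR adjusted p = 0.043). This rested on CD4 KO replicates 3 and 4: the change was -0.17 within replicates 1 and 2 (adjusted p = 0.755) and -1.41 within replicates 3 and 4 (adjusted p = 0.00036). Without CD4 KO replicate 3 or 4 it was -0.67 and -0.74 (adjusted p = 0.159 and 0.14). Leaving out CD8 KO replicate 1, 2, 3 or 4, CD4 Het replicate 3 or CD8 Het replicate 1 also ended the call, at adjusted p from 0.0503 to 0.0976. In Het cells it differed by -0.11 ± 0.34 SE and in WT cells by -0.73 ± 0.47 SE, and neither passed.

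Mbnl1 was higher in CD8 than in CD4 cells, by 0.30 ± 0.08 SE in WT (edgeR adjusted p = 0.00626) and 0.25 ± 0.08 SE in Het (adjusted p = 0.0155). In KO the change of 0.21 ± 0.08 SE just missed the threshold (edgeR adjusted p = 0.0581). It passed in 9 of 32 alternatives, among them DESeq2 (adjusted p = 0.0445) and an edgeR fit blocked on the replicate number (0.0223). The Het call was lost without CD8 Het replicate 2 (0.20, adjusted p = 0.065) and within replicates 3 and 4 (0.19, adjusted p = 0.125). Cd1d1 was not called between cell types in WT (0.69 ± 0.30 SE, edgeR adjusted p = 0.0831). It passed in 2 of 32 alternatives. These were without CD4 KO replicate 2 (0.69, adjusted p = 0.024) and with a covariate for replicates 1 and 2 against 3 and 4 (0.7, adjusted p = 0.0327). Gm8778 was not called in Het (0.34 ± 0.33 SE) or KO (-0.28 ± 0.33 SE), and in WT its 2 counts in CD4 and 1 in CD8 allowed no call. Without Gm38326, Gm33707 and, in WT, Gm8778, 1 of 3 genes passed in WT, 1 of 4 in Het and 1 of 4 in KO, against 31.2%, 34.9% and 24.1% of all 13288 genes, so calls between cell types are common in these data.

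**Figure D2:**
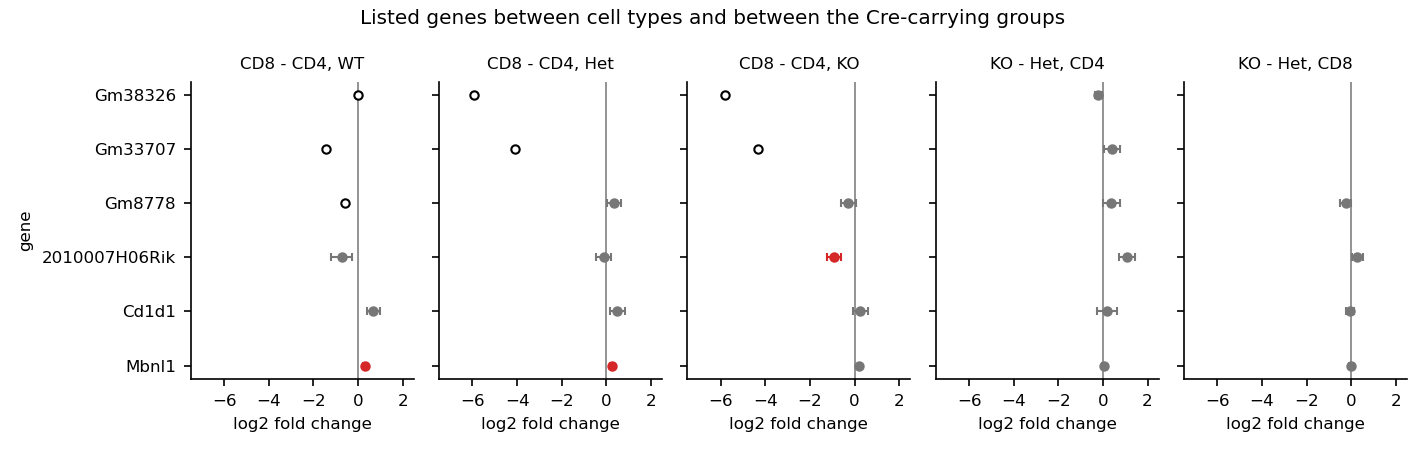
Log2 fold change with its standard error for the 6 genes: CD8 against CD4 in each genotype and KO against Het in each cell type (red, adjusted p under 0.05; grey, not; open black, without an error bar, values shown as a description because the choice of genes or their low counts set the outcome). The open points of Gm38326 and Gm33707 lie at -5.92 to -4.08 between cell types in Het and KO, and all points of KO against Het are grey; both genes are missing from KO against Het in CD8, where they did not pass the count filter.

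The neighbourhood of each gene was described within 1 Mb, since position did not enter the choice. Of 228 annotated neighbours, 65 were tested in CD4 and 70 in CD8. Those called in any genotype comparison were Pou2af1 beside 2010007H06Rik and Rps3a1, which encodes a ribosomal protein, 853.1 kb from Cd1d1. For Het against WT in CD4 that is 1 of 65 (1.54%), beside 0.0865% of all tested genes. For KO against WT it is 2 of 65 (3.08%), beside 0.0708%. In CD8 the numbers were 1 of 70 (1.43%) and 2 of 70 (2.86%), beside 0.0634% of all tested genes in each comparison. Pou2af1 is the floxed gene, so its call for KO against WT was set by the design. Rps3a1 was lower by -1 ± 0.06 SE in Het against WT in CD4 (adjusted p = 3.92e-06) and -0.98 ± 0.07 SE in CD8 (1.72e-05). Around Gm38326, 5 of 23 neighbours were tested in CD4 and 0 were called by edgeR. For Het against WT in CD4 all 5 lay lower, from -0.9 to -0.1 with a median of -0.45 (-0.02 over all genes). By edgeR 2 of the 5 were under an unadjusted p of 0.05, beside 1104 of all 12719 tested genes. For KO against WT in CD4 they ran from -0.35 to 0.24, and 0 were, beside 310 of all genes. In CD8 cells 7 neighbours were tested. Their changes ran from -1.26 to 0.56 for Het against WT (median 0.04) and from -0.57 to 0.48 for KO against WT (median -0.28). Mbnl1, 158.6 kb away, was higher in Cre carriers of both cell types, while Gm38326 was so in CD4 and overlapped in CD8. Gm8778 sits in a cluster of lectin-like receptor genes of natural killer cells. Of its 26 tested neighbours in the fit of all libraries, 12 were higher in CD8 than in CD4 cells in WT, such as Klrd1 (5.42 ± 0.67 SE) and Klrk1 (5.49 ± 0.66 SE), against 14.7% of all genes. The count filter passed 21 of these neighbours in CD4 and 26 in CD8. Some could thus enter only through the CD8 libraries, so the count is a description.

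**Figure D3:**
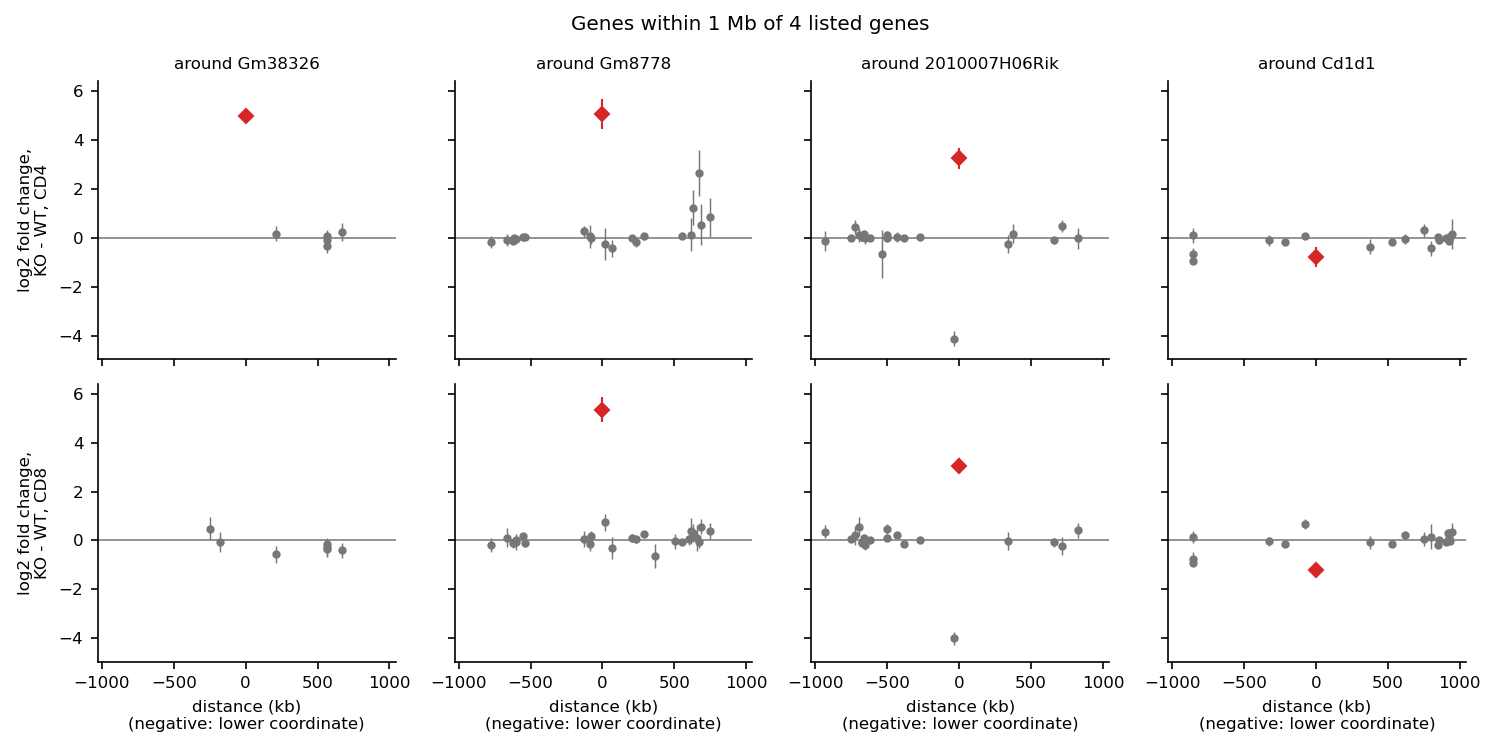
Log2 fold change of KO against WT with its standard error (y axis) for tested genes within 1 Mb of 4 listed genes, by distance in kb (x axis), in CD4 (top) and CD8 (bottom); red diamonds are the listed genes, shown as a description, and grey points their neighbours. The grey point at -4.13 and -4 beside 2010007H06Rik is Pou2af1; Gm38326 has no diamond in CD8, where it was not tested.

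Among all genes, the pattern over the 24 libraries most like that of Gm8778 was that of Rps3a3 and Tpm3-rs7, both with a Pearson r of log2 CPM of 0.972, followed by Gm37116 at 0.787. The same 3 genes were most like 2010007H06Rik, at 0.899, 0.889 and 0.657. Rps3a3 is annotated as a processed pseudogene on chromosome 13 and Tpm3-rs7 as a retrogene on chromosome 14, and their namesakes Rps3a1 and Tpm3 lie on chromosome 3, as Gm37116 does. Rps3a3 averaged 2.24 ± 0.175 CPM in CD4 WT against 187 ± 6.78 in Het and 199 ± 6.17 in KO (SD, n = 4), and Tpm3-rs7 6.20 ± 0.694 against 76.8 ± 5.31 and 78.1 ± 3.19. Rps3a1 and Tpm3 moved the other way, with Het at 50.2% and 67.7% of WT in CD4. These r values rest on the contrast of 8 WT with 16 Cre-carrying libraries that chose the genes, and the libraries share their depth scaling, so they are descriptions. For Gm38326 the nearest were Zfp719 and Ercc5 (both 0.849) and Mdm2 (0.846), for Gm33707 Gosr2 (0.831), for Cd1d1 Raver2 (0.718), and for Mbnl1 Nck1 (0.809).

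**Figure D4:**
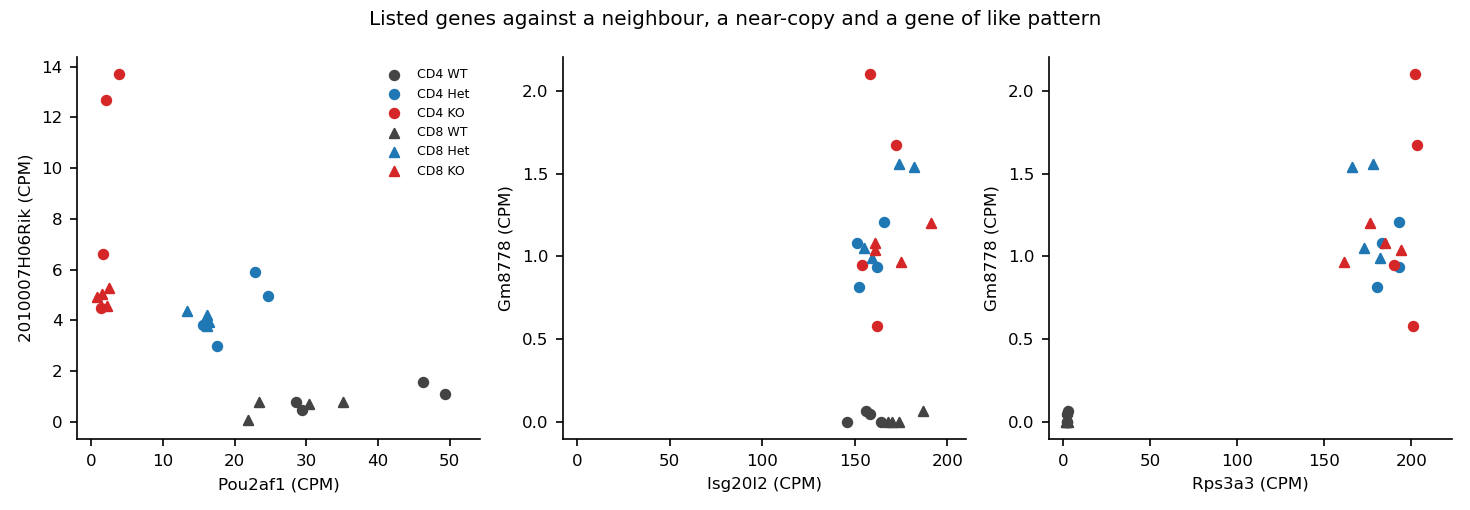
Level per library in CPM (24 points; circles CD4, triangles CD8; grey WT, blue Het, red KO) of 2010007H06Rik against its neighbour Pou2af1 (left), and of Gm8778 against its near-copy Isg20l2 (middle) and Rps3a3 (right). Isg20l2 lies between 146 and 191 CPM in all 24 libraries, while WT libraries lie at the foot of both Gm8778 panels.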

How the data were processed

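Polyadenylated RNA of 24 libraries was analysed, 4 in each of 6 groups. The deposited table holds raw counts of whole reads per gene, and per the submitters' processing notes the authors used Trimmomatic 0.35, STAR 2.7.1a, DESeq2 1.26.0 and GRCm38. No source used here states the strand setting or the annotation release. The authors' second table holds normalised signal for 20961 genes. Each of its 24 columns was the raw count over 1 factor (relative deviation at most 4.4e-16), and it was not used further. Summary lines that name no gene (31.6% to 35% of each column) were left out. 54349 of 55401 genes matched GENCODE M21 by identifier, version and coordinates, which gave exons and transcripts; sequences are from GENCODE and, for promoters, RefSeq.

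Counts were fitted with edgeR 4.0.16 in R 4.3.3 (filterByExpr with a minimum count of 10, TMM, quasi-likelihood F test, 2-sided, Benjamini-Hochberg over all tested genes, threshold 0.05). Genotypes were compared in the 12 libraries of a cell type, and cell types in all 24. The script was tested on simulated data. CPM are TMM-scaled, and 3 counts (0.135 to 0.252 CPM) served as the floor. The members and lists were chosen with earlier results of these data known. Named genes are the 6, Pou2af1, Cd1d2, the 3 genes of highest r to each over 13282 genes, and, among neighbours and lists, genes called in a genotype comparison or the 2 of lowest p; others are said to be named after their values were seen. Alternatives were another scaling, no filter, DESeq2 1.42.0, a replicate block, sex, replicates 1 and 2 against 3 and 4 (a split seen in earlier results, not in the labels) and leaving out each library. Replicates of a group differed beyond sampling noise in all 36 pairs (chi-square per degree of freedom at least 2.78). The labels do not say which libraries came from separate mice, so p-values measure the spread between these libraries. Within each genotype, same-numbered CD4 and CD8 libraries had the same sex by Xist and Ddx3y. The main tests between cell types did not pair them, and whether they came from the same mouse was not tested. Same-numbered libraries deviated together within CD4 (r of 0.132 to 0.58 over genes) and between the cell types of a genotype (0.147 to 0.451), while within CD8 4 of 12 such pairs did not exceed 0.1 (-0.226 to 0.403).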

Additional observations from a re-analysis of the deposited data

Results flagged for a closer look

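Among the groups of 4 libraries, 5 values stood apart from the other 3 by Dixon's test at the 95% level. Chance gives this in about 1 of 20 groups. That rate does not hold where the other libraries have 0 or 1 count, since 1 more count then sets a library apart. Gm33707 was low in CD4 Het replicate 2, at 1.4 CPM against 1.74 to 1.77 CPM. The same gene read 0.0688 CPM in CD8 WT replicate 4 and 0.14 CPM in CD8 Het replicate 4, which are 1 and 2 counts. Gm8778 read 0.0637 CPM in CD8 WT replicate 3, which is 1 count where the others had 0. 2010007H06Rik was low in CD8 WT replicate 1, at 0.0755 CPM, 1 count against 10 to 12 in the others.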

How the results depend on the processing

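Of 254 recomputed counts of listed genes called, 244 stayed within 1.5 times. Counts in the comparisons with WT, and those of Gm38326 and Gm33707 between cell types, follow from the choice of the genes and test nothing. For Het against WT in CD4, 5 were called with DESeq2, with the covariate for replicates 1 and 2 against 3 and 4, and within replicates 1 and 2, and 80 genes in all passed with DESeq2 against 11 by edgeR. For KO against WT in CD4, 2 were called within replicates 3 and 4. In CD8, Het against WT gave 0 within replicates 1 and 2 and within replicates 3 and 4, with 2 libraries in each group, and KO against WT gave 0 within replicates 1 and 2 and 1 within replicates 3 and 4. For CD8 against CD4 in WT, 2 were called with the same covariate. DESeq2 called 19 genes for KO against Het in CD8 against 2 by edgeR, none of them listed. Leaving out 1 library gave 2 to 3 for Het against WT in both cell types, 2 to 3 for KO against WT in CD8, 4 throughout for KO against WT in CD4, 1 to 2 for CD8 against CD4 in WT, 2 to 3 in Het and 2 to 4 in KO, and 0 throughout for KO against Het. In CD8, where 8 of 12 same-numbered pairs correlated above 0.1 and 2 of 12 libraries correlated best with their own number in both other genotypes, the numbers were not taken to pair the libraries. There the replicate block gave 2 for Het against WT, without Cd1d1 (adjusted p = 0.0783, against 0.0254 without the block), and 3 for KO against WT. In CD4 and between cell types it added 2010007H06Rik for Het against WT in CD4 and Mbnl1 for CD8 against CD4 in KO, and changed no other call of a listed gene.

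Of 562 recomputed log2 changes that were tested, 525 kept their direction and side of the threshold and 15 reversed, none of them called. Those of Gm38326 and Gm8778 in WT, described without a test, are also given. Mbnl1 in KO against Het went to -0.12 in CD4 within replicates 1 and 2, and in CD8 to 0.02 with sex as a covariate and 0.09 within replicates 3 and 4. Gm38326 in CD8 against CD4 in WT went to -0.01 without the filter, 0 with DESeq2 and -0.3 within replicates 1 and 2. Between cell types, Gm8778 in WT went to 0.2 and Cd1d1 in KO to -0.01 within replicates 3 and 4, and 2010007H06Rik in Het to 0.28 within replicates 1 and 2. Leaving out 1 library gave -0.15 to 0.49 for Cd1d1 and -0.03 to 0.09 for Mbnl1 in KO against Het in CD4, and -0.18 to 0.01 and -0.05 to 0.05 in CD8. Between cell types it gave -0.24 to 0.2 for Gm38326 in WT, -0.26 to 0.06 for 2010007H06Rik in Het, and -0.54 to 0.02 for Gm8778 and -0.07 to 0.56 for Cd1d1 in KO. The causes were not tested. At these depths 1 count is 0.0452 CPM or more in CD4 WT, so differences of Gm38326, Gm33707 and Gm8778 between groups near the floor were not detectable.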
